A study of Homo sapiens with 36 samples.

Results

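This comparison sets the ribosome footprints of ELR fibroblasts against those of EH fibroblasts, both derived from the human foreskin line BJ, in libraries made under cycloheximide. It rests on 4 of the 36 libraries of the series, 2 for EH and 2 for ELR, picked by their titles. The 2 cycloheximide libraries of another derivative, EL, share the model fit and are given as side values. Cells were treated with 100 µg/ml cycloheximide for 90 s, which holds elongating ribosomes on their messages, or with 2 µg/ml harringtonine for 5 min, which arrests ribosomes that have just initiated and lets elongating ones finish. Each line also has 2 harringtonine libraries and 1 RNA library. EH, EL and ELR grew alike, in Knockout DMEM with medium 199 and serum, and received no other agent that the labels name. The labels leave the names unexplained. As background, stepwise transformed BJ series carry the telomerase gene hTERT, then the early region of SV40, whose large T antigen binds tumour suppressors of the host, then an oncogenic HRAS, and whether ELR against EH spans several of these steps the labels do not state. Whether a line is a clone or a pool, and whether replicates are separate cultures, the labels do not say, so p-values measure the spread between these libraries, which may be technical.

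Ribosome profiling counts the short pieces of messenger RNA that ribosomes shield from nuclease, so a gene's share of footprints follows both the amount of its message and how many ribosomes each message carries. Fibroblasts make and turn over connective tissue: they secrete collagens, proteoglycans and adhesive glycoproteins, cross-link them, and pull on them through actin stress fibres. Ribosomal protein messages begin with a run of pyrimidines, the terminal oligopyrimidine (TOP) tract, through which growth signalling controls their translation, and ATF4 is a transcription factor whose own message is translated when amino acids run short.

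Cycloheximide libraries held 1178474 to 1428633 counts in EH, 2123539 to 2544742 in EL and 1843930 to 2606955 in ELR. RNA libraries held 2073668 to 2553023 and harringtonine libraries 129365 to 215118. Replicates differed little beyond counting noise, with a chi-square of 1.10 per gene between the EH libraries and 1.11 between the ELR libraries (1 would be counting noise alone), and none were taken for the same library. Values are normalised read counts (CPM, counts scaled to library size by trimmed means), changes are log2, ELR minus EH, ± SE, and means are ± SD with n = 2. A gene is called where edgeR's Benjamini-Hochberg adjusted p is under 0.05.

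Genes that such series add or act on were checked first. HRAS, the growth-signalling GTPase (NM_001130442, GRCh37 chromosome 11, 532242 to 537321), had 28.8 and 26.1 CPM in EH, 33.6 and 33.1 CPM in EL and 139 and 153 CPM in ELR. The ELR libraries stood above all others, with a change of 2.39 ± 0.19 (adjusted p = 3.83e-23), and HRAS RNA had 15.5 CPM in EH and 33.2 CPM in ELR. TERT, the catalytic subunit of telomerase, had 335 and 361 CPM in EH, 167 and 176 CPM in EL and 201 and 241 CPM in ELR. It was present in every library, its footprints were highest in EH and fell by 0.67 on the log2 scale (adjusted p = 6.73e-12), and its RNA was not lower in ELR (118 CPM in EH and 124 CPM in ELR). CDKN2A, which encodes the inhibitors p16 and p14ARF, had 17.0 and 24.3 CPM in EH, 232 and 229.8 CPM in EL and 196 and 235 CPM in ELR. EL and ELR overlapped for it and both lay above EH (3.39 ± 0.22 for ELR). CDKN1A, the cyclin-dependent kinase inhibitor p21, fell from 142 ± 16.8 to 24.5 ± 4.13 CPM (−2.49 ± 0.17, adjusted p = 6.24e-24), and MDM2, a ubiquitin ligase (−0.50 ± 0.18, adjusted p = 0.0148). RB1 did not pass the test (−0.04 ± 0.10, adjusted p = 0.752).

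Of 9999 genes tested, 5330 (53.3%) differed between ELR and EH, 2553 higher in ELR (25.5%) and 2777 lower (27.8%). Among these calls the estimated change was at least 2-fold in 842 higher (8.42% of genes tested) and 1395 lower (14.0%), so large changes were more often falls. A test against a 2-fold change called fewer, 357 higher and 856 lower. The replicates of the lines did not overlap in 7502 genes (75.0%). The median change over all tested genes was −0.01. These shares are the background for each list count, and members of a list with too few counts were not tested.

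**Figure D1:**
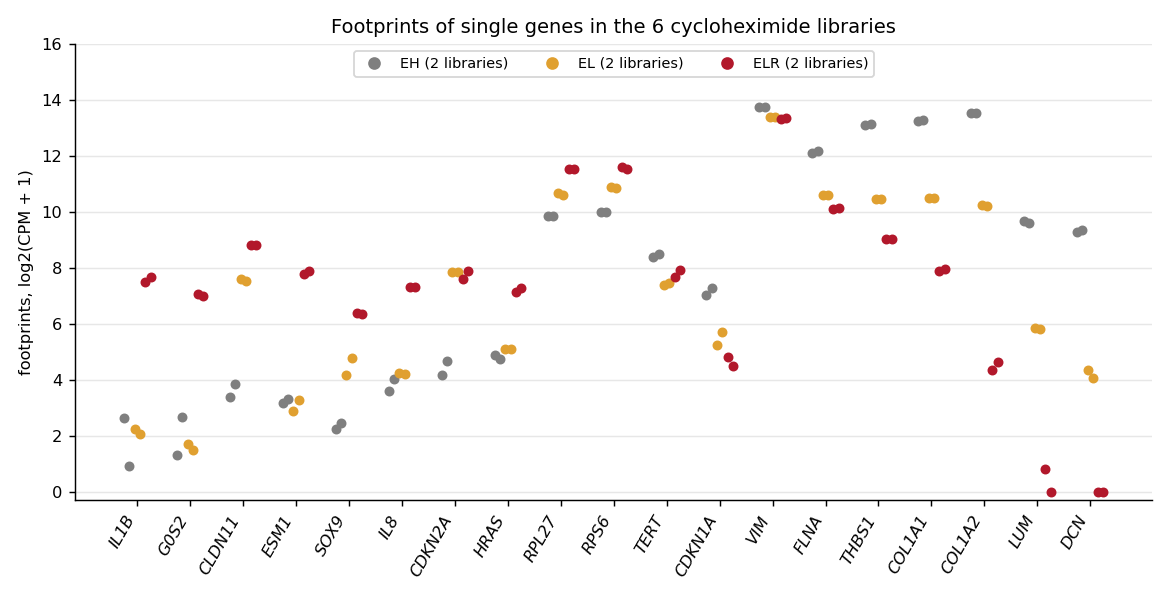
Footprints of 19 genes as log2(CPM + 1) on the vertical axis, with a point for each of the 6 cycloheximide libraries, grey for EH, yellow for EL and red for ELR. IL1B, G0S2 and CLDN11 are highest in ELR, and DCN and LUM are at or near 0 in ELR, while VIM differs little between the lines.

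The fibroblast label was checked on 15 marker genes. All were lower in ELR, and they summed to 51370 to 52850 CPM in the EH libraries and 12200 to 12450 CPM in the ELR libraries. Vimentin, VIM, the intermediate filament of mesenchymal cells, had 13615 and 13865 CPM in EH, 10625 and 10668 CPM in EL and 10330.0 and 10564 CPM in ELR and made up most of the sum in ELR. Decorin (DCN) and the receptor PDGFRA had no count in ELR. In libraries of bulk cells, fewer cells of a type and less RNA per cell cannot be told apart. Of 15 keratinocyte and epithelial markers, 8 had no count in the EH or ELR libraries. The list summed to 1580 to 1608 CPM in EH and 1196 to 1213 CPM in ELR. Most of it was keratin 18 (KRT18, 1016 and 1027 CPM in EH, 779.8 and 820.1 CPM in EL and 931 and 952 CPM in ELR). Endothelial markers summed to 15.5 to 19.8 CPM in EH and 41.9 to 45.3 CPM in ELR, through TIE1, a receptor of that lineage, which had 1 count in EH and 35.7 ± 1.44 CPM in ELR. Leukocyte markers summed to 107 to 120 and 119 to 134 CPM, and muscle markers to 3.59 to 13.3 and 11.3 to 12.9 CPM. Melanocyte markers summed to 28.8 to 29.5 CPM in EH and 6.48 to 10.3 CPM in ELR, and neural markers to 380 to 394 and 124 to 126 CPM. Their part in the results was not tested.

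Extracellular matrix genes fell almost throughout. The matrix lists together took 7.81% ± 0.118 of all footprints in EH, 2.64% ± 0.000707 in EL and 1.41% ± 0.0156 in ELR. Of their 110 genes 94 were tested, of which 90 fell and 4 rose, with a median of −2.87. Collagen chains, the rods of the fibres, went from 3.38% ± 0.0622 to 0.200% ± 0.000849 of footprints, and 18 of 19 tested chains fell. Collagen I is the main fibre of skin. Its chain COL1A1 (NM_000088, GRCh37 chromosome 17, 48261462 to 48278993) had 9643 and 10012 CPM in EH, 1428 and 1446 CPM in EL and 234 and 249 CPM in ELR. COL1A2 (NM_000089, GRCh37 chromosome 7, 94024207 to 94060539) had 11742 and 12003 CPM in EH, 1216 and 1191 CPM in EL and 19.4 and 23.7 CPM in ELR. The steps from EH to EL to ELR were each larger than any gap between replicates, and the 2 chains of the same protein ended at unlike levels in ELR: the change was −5.35 ± 0.05 for COL1A1 (adjusted p = 6.34e-83) and −9.12 ± 0.15 for COL1A2 (adjusted p = 4.64e-88).

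COL3A1, the chain of the collagen III of soft tissue, had 593 and 589 CPM in EH, 179 and 182 CPM in EL and 1.52 and 1.62 CPM in ELR, a change of −8.50 ± 0.55. COL5A2, a chain of the collagen that starts fibrils, stood at 333 and 360.3 CPM in EH, 373 and 375 CPM in EL and 68.2 and 70.7 CPM in ELR, with EL slightly above EH and ELR below both (−2.32 ± 0.10). COL11A1 was highest in EL and also fell in ELR, with 62.7 and 58.4 CPM in EH, 83.2 and 90.2 CPM in EL and 1.90 and 0.540 CPM in ELR. Among the microfibril collagen VI chains, COL6A1 fell (−3.77 ± 0.06), COL6A2 (−3.60 ± 0.05) and COL6A3 (−2.47 ± 0.04), and the basement membrane chains COL4A1 and COL4A2 (−3.62 ± 0.14 and −2.94 ± 0.08). COL13A1, a chain that spans the cell membrane, was the exception: it rose from 34.5 ± 0.767 to 75.7 ± 5.85 CPM (1.12 ± 0.18, adjusted p = 3.60e-08).

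Of 23 tested enzymes that build collagen, 22 fell and 1 rose, with a median of −1.53 beside −3.77 for the chains. LOX, the oxidase that cross-links fibres, fell from 1635 ± 45.3 to 159 ± 8.88 CPM (−3.35 ± 0.06), PCOLCE, which helps to cut procollagen (−4.77 ± 0.12), and P4HB, a subunit of prolyl hydroxylase that also folds other proteins (−0.61 ± 0.04). PLOD2, a lysyl hydroxylase of collagen ends, rose from 223 ± 9.86 to 445 ± 26.8 CPM (0.99 ± 0.07).

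All 23 tested proteoglycan and elastic fibre genes fell, out of 25 on the list, with a median of −3.72, and 5 of them had no count in ELR. Decorin, DCN, which coats collagen fibrils (NM_001920, GRCh37 chromosome 12, 91534261 to 91576994), had 627 and 652 CPM in EH, 19.3 and 15.9 CPM in EL and 0 and 0 CPM in ELR, at least 953-fold lower in ELR (no count there is taken as a floor of 3 over its libraries). Lumican, LUM, of the same family (NM_002345, GRCh37 chromosome 12, 91496406 to 91505271), had 1983 counts in EH and 2 in ELR, a ratio of 1800.0 (95% counting interval 498 to 14870.0). Both stood far below EH already in EL, where LUM had 55.8 ± 0.716 CPM. Biglycan, BGN, fell (−8.36 ± 0.48) and fibulin 1, FBLN1, which sits in elastic fibres, from 2426 ± 169 to 7.35 ± 2.00 CPM (−8.30 ± 0.26).

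Adhesive glycoproteins fell in 19 of 21 tested and rose in 2. THBS1, thrombospondin 1, a matrix protein that activates TGF-beta (NM_003246, GRCh37 chromosome 15, 39873280 to 39891667), had 8775 and 8986 CPM in EH, 1405 and 1407 CPM in EL and 518 and 527 CPM in ELR, a change of −4.09 ± 0.04 (adjusted p = 4.26e-79). Fibronectin, FN1, fell from 2641 ± 23.3 to 164 ± 9.76 CPM (−4.00 ± 0.06), SPARC (−2.54 ± 0.04) and the laminin chain LAMA4 (−6.20 ± 0.39). Of the genes that make, bind or cut hyaluronan, 8 of 8 tested fell. KIAA1199, which binds and degrades it, had 1654 counts in EH and 5 in ELR (−9.15 ± 0.67), and the receptor CD44 moved least, with 2436 ± 42.2 CPM in EH and 2269.9 ± 34.4 CPM in ELR (−0.10 ± 0.03, adjusted p = 0.00391).

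**Figure D2:**
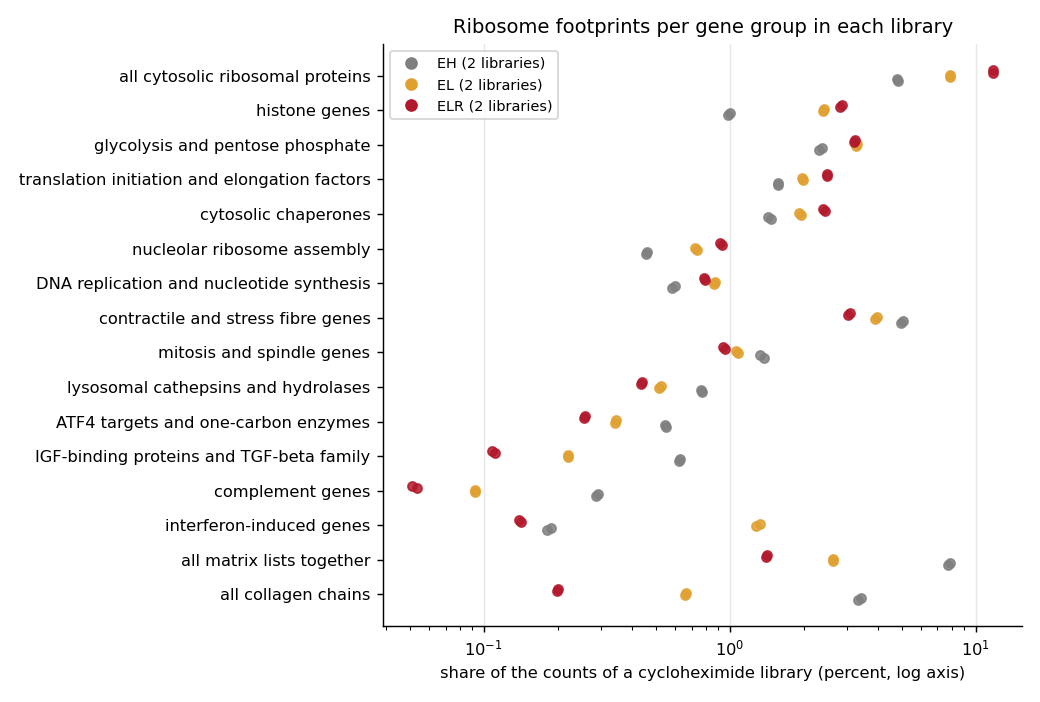
Share of all counts of a library that fell on each gene group, in percent on a log axis, with a point per cycloheximide library (grey EH, yellow EL, red ELR). Cytosolic ribosomal proteins go from 4.83% in EH to 11.8% in ELR and the matrix lists from 7.81% to 1.41%, while interferon-induced genes are highest in EL.

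Genes by which fibroblasts grip and pull on the matrix fell too. Contractile and stress fibre genes fell in 31 of 35 tested and rose in 2, and their share went from 5.02% ± 0.0820 to 3.06% ± 0.0559 of footprints. TAGLN, the actin-binding transgelin, had 1857 and 1836 CPM in EH, 587 and 604 CPM in EL and 55.6 and 62.6 CPM in ELR (−4.98 ± 0.09). Smooth-muscle actin, ACTA2, fell (−4.89 ± 0.33), caldesmon, CALD1 (−2.87 ± 0.08) and filamin A, FLNA, which cross-links actin, from 4503 ± 192 to 1115 ± 4.33 CPM (−2.01 ± 0.03). Beta-actin, ACTB, changed by only −0.24 ± 0.03, while CNN3, a calponin, and TPM3, a tropomyosin, rose (0.38 ± 0.06 and 0.30 ± 0.06).

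Integrins, the receptors for matrix, fell in 9 of 13 tested and rose in 2. ITGB1, the shared beta chain, fell from 4248 ± 95.8 to 1691 ± 37.3 CPM (−1.33 ± 0.03), and ITGAV and ITGB5, which pair as a vitronectin receptor (−1.70 ± 0.11 and −2.10 ± 0.13). ITGA6, an alpha chain for laminin, rose from 329 ± 12.3 to 582 ± 2.37 CPM (0.82 ± 0.06). Of the cadherins and mesenchymal genes 15 of 18 fell and 1 rose. The mesenchymal cadherin CDH11 fell (−7.51 ± 0.48), the surface protein THY1 (−2.90 ± 0.07) and FAP, a surface protease of activated fibroblasts (−7.32 ± 0.66). Junction genes went both ways, 4 higher and 8 lower of 17: desmoplakin, DSP, the desmosome anchor, had 604 counts in EH and none in ELR (at least 365-fold lower), whereas the tight junction protein CLDN11 (NM_005602, GRCh37 chromosome 3, 170136656 to 170172521) had 9.60 and 13.5 CPM in EH, 196 and 183 CPM in EL and 446 and 449.6 CPM in ELR. The rise of CLDN11 (5.29 ± 0.28, adjusted p = 2.18e-45) stood apart from EL as well as from EH. The gap junction protein GJA1 fell (−2.23 ± 0.09).

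Signals that fibroblasts send and receive were reduced in most lists. Of IGF-binding proteins and TGF-beta family genes, 19 of 24 tested fell and 2 rose, with a median of −2.50. IGFBP5, which binds insulin-like growth factors, had 1178 counts in EH and 4 in ELR (−8.96 ± 0.73), IGFBP7 fell (−5.38 ± 0.13) and GREM1, a BMP antagonist (−4.77 ± 0.12). Growth factor receptors and ligands fell in 16 of 21 and rose in 1. PDGFRA, a receptor for platelet-derived growth factor, had 500 counts in EH and none in ELR (at least 302-fold lower), and PDGFRB fell (−4.61 ± 0.28), FGFR1 (−1.83 ± 0.14) and AXL (−0.32 ± 0.05). Wnt ligands and inhibitors fell in 8 of 14 and rose in 3, with WNT5A at −3.30 ± 0.16 and the inhibitor DKK1 at −1.48 ± 0.05, against a rise of the secreted inhibitor SFRP1 from 102 ± 0.763 to 674 ± 3.76 CPM (2.72 ± 0.10).

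Proteases split. Metalloproteases and their inhibitors fell in 15 of 19 and rose in 1. MMP1, the interstitial collagenase (NM_002421, GRCh37 chromosome 11, 102660132 to 102668891), was that one: it had 3379 and 3376 CPM in EH, 1374 and 1316 CPM in EL and 5202 and 5126 CPM in ELR, lowest in EL and highest in ELR (0.61 ± 0.03, adjusted p = 1.29e-31), and was among the 10 genes that gained the most footprints. MMP3, stromelysin, fell from 1174 ± 16.5 to 67.0 ± 1.65 CPM (−4.12 ± 0.09), MMP2 (−5.86 ± 0.21), ADAMTS1 (−4.01 ± 0.08) and the inhibitor TIMP3 (−3.49 ± 0.07). In the plasminogen list, 5 rose and 9 fell of 18: PLAU, urokinase, rose from 79.0 ± 12.6 to 441 ± 17.9 CPM (2.46 ± 0.11) while the serpin SERPINE2, which inhibits it, fell (−2.89 ± 0.07). Lysosomal cathepsins and hydrolases fell in 21 of 22, among them CTSB (−2.04 ± 0.04) and PSAP, the precursor of saposins (−1.07 ± 0.05).

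Ribosomal proteins moved the other way, as a block. The 6 windows that follow show where the messages of the ribosomal proteins that gained the most CPM begin, a choice that favours abundant genes over those with the largest fold, since the start decides whether a message carries a TOP tract. Each window holds the 5 bases before the RefSeq start (GRCh38.p14) and the first 15 transcribed bases, 5′ to 3′, with a tract (a C at the start followed by an unbroken run of C or T, at least 5 bases in all) in capitals. RPL8 belongs to the same set and is named only.
RPS6 (chr9:19380222-19380241, minus strand): tggccCTCTTTTCCgtggcg
RPL7A (chr9:133348213-133348232, plus strand): ctttcCTTTCTCTCTCCTCC
RPS3 (chr11:75399513-75399532, plus strand): cacttCCTTTCCTTTCagcg
RPL27 (chr17:42998414-42998433, plus strand): aggttagcggaagtgtcctt
RPL13 (chr16:89560652-89560671, plus strand): tcatcccagagtgcattgcg
RPL6 (chr12:112411428-112411447, minus strand): ctcagtgaatcagaaccaga
RPS6, RPL7A and RPS3 start on such a tract in this annotation, and RPL27, RPL13 and RPL6 do not. Of 62 tested ribosomal proteins with a start in the table (of 77), 42 (67.7%) had a tract, against 4.04% of all 27305 starts in it. All 42 with and all 20 without were called higher in ELR, with medians of 1.22 and 1.19. A match describes the annotated start and not the start used in these cells.

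All 77 tested ribosomal proteins of the 79 on the list rose from EH to ELR, by a median of 1.22 and most in RPL39 (1.83 ± 0.09), and their libraries overlapped in none. Their share of all footprints was 4.83% ± 0.0389 in EH, 7.90% ± 0.00919 in EL and 11.8% ± 0.0212 in ELR. RPS6, the 40S protein that S6 kinase phosphorylates (NM_001010, GRCh37 chromosome 9, 19375713 to 19380234), had 1014 and 1026 CPM in EH, 1914 and 1836 CPM in EL and 3115 and 2951 CPM in ELR. RPL27 (NM_000988, GRCh37 chromosome 17, 41150290 to 41154976) had 921 and 916 CPM in EH, 1647 and 1574 CPM in EL and 2951 and 2935 CPM in ELR. Both rose from EH to EL and again from EL to ELR, with changes from EH to ELR of 1.57 ± 0.04 (adjusted p = 2.15e-49) and 1.68 ± 0.04 (adjusted p = 3.72e-51). Among the rest, RPL13 rose by 1.74 ± 0.04, RPL7A by 1.32 ± 0.04, RPL6 by 1.49 ± 0.04, RPL8 by 1.26 ± 0.04 and RPS3 by 1.25 ± 0.04. Ribosomal protein genes have many processed copies in the genome, and counts may be split among them.

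Other parts of the translation machinery rose with smaller values. Initiation and elongation factors rose in 31 of 45 tested and fell in 5, with a median of 0.44. EEF2, which moves the ribosome along, rose from 2206 ± 29.9 to 3533 ± 101 CPM (0.68 ± 0.03), EEF1G by 1.16 ± 0.04 and EIF3H by 1.14 ± 0.07, while the cap-binding protein EIF4E fell (−0.56 ± 0.08). Nucleolar genes of ribosome assembly rose in 36 of 38 and fell in none, with EBNA1BP2 at 1.68 ± 0.08, RRP12 at 1.66 ± 0.17 and nucleophosmin, NPM1, at 1.09 ± 0.04. Mitochondrial ribosomal proteins rose in 64 of 67 and fell in none (median 0.73), for example MRPS17 (1.46 ± 0.18) and MRPL12 (1.33 ± 0.11). Aminoacyl-tRNA synthetases, which charge tRNA with amino acids, went both ways, 8 higher and 11 lower of 21. FARSA and FARSB, the subunits of the phenylalanine enzyme, rose by 0.96 ± 0.10 and 0.97 ± 0.09, and AARS and CARS, for alanine and cysteine, fell (−1.01 ± 0.07 and −0.97 ± 0.11).

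**Figure D3:**
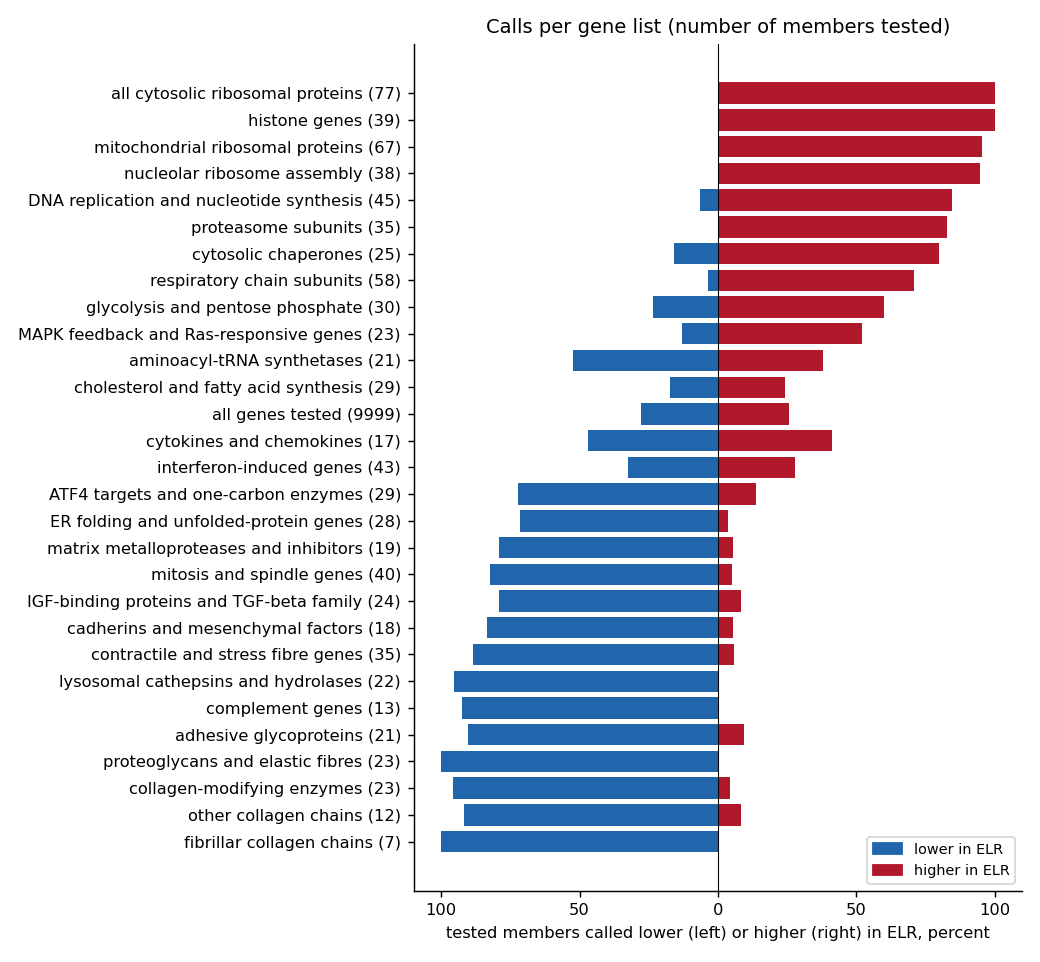
Percent of the tested members of 29 sets of genes called lower (blue, to the left) or higher (red, to the right) in ELR than in EH, with the number tested in parentheses. All 77 ribosomal proteins and all 39 histone genes are higher and all 23 proteoglycan and elastic fibre genes lower, against 25.5% higher and 27.8% lower of all genes tested.

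Cell cycle lists went different ways. Histone genes, expressed with DNA synthesis, rose in 39 of 39 tested (40 on the list), with a median of 1.53 and a share of footprints that went from 0.992% ± 0.0140 to 2.84% ± 0.0453. HIST1H1E, a linker histone, had 371 and 364 CPM in EH, 1301 and 1277 CPM in EL and 1471 and 1466 CPM in ELR (2.00 ± 0.06). HIST1H3B rose by 1.46 ± 0.05 and HIST3H2A by 2.08 ± 0.26. Histone genes of a type are near copies of each other, so that single values are uncertain. Of 45 tested genes of DNA replication and nucleotide synthesis 38 rose and 3 fell (median 0.72). CDC6, a loader of the replicative helicase, rose from 43.0 ± 0.221 to 121 ± 7.48 CPM (adjusted p = 2.85e-15), POLE2 by 1.57 ± 0.27 and PRIM1, a primase subunit, by 1.33 ± 0.17, while RRM2, of ribonucleotide reductase, fell (−0.46 ± 0.05). Genes of mitosis and the spindle fell in 33 of 40 and rose in 2 (median −0.51): CENPF, of the kinetochore, fell from 779 ± 33.6 to 262 ± 7.67 CPM (−1.57 ± 0.06), ASPM (−1.57 ± 0.08), TOP2A, which untangles chromosomes (−1.38 ± 0.05) and PRC1 (−1.31 ± 0.06), whereas AURKB rose by 0.49 ± 0.10 and BIRC5, survivin, by 0.52 ± 0.08. The list of CDK inhibitors, RB family and cyclins had no common direction, 6 higher and 5 lower of 20 tested (median −0.04). Cyclin CCNE2 of the G1 to S step rose by 1.45 ± 0.23 and CCNA2 and CCNB1 of later phases fell (−0.79 ± 0.07 and −0.52 ± 0.04). The cyclin CCND1, given below, fell as well.

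Genes that answer Ras signalling through the MAPK cascade rose in 12 of 23 tested and fell in 3, with a median of 0.73. PHLDA1 rose from 82.6 ± 7.48 to 319.7 ± 6.63 CPM (1.94 ± 0.11), TMEM158, known as a gene induced by Ras in senescence, by 2.09 ± 0.19, FOSL1, an AP-1 subunit, by 0.79 ± 0.07 and the ephrin receptor EPHA2 by 0.84 ± 0.11. Cyclin D1, CCND1, fell from 930.2 ± 25.1 to 451 ± 24.1 CPM (−1.05 ± 0.05). Of 15 immediate-early factors 3 rose and 6 fell, with a median of −0.39. JUN was among the 3 that rose (1.25 ± 0.13).

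Cytokines and chemokines were divided, 7 higher and 8 lower of 17 tested. IL1B, interleukin 1 beta (NM_000576, GRCh37 chromosome 2, 113587328 to 113594393), had 5.17 and 0.898 CPM in EH, 3.78 and 3.17 CPM in EL and 179.8 and 205 CPM in ELR. It was low in EH and EL alike and rose by 5.85 ± 0.53 in ELR (adjusted p = 7.37e-34). IL8, which attracts neutrophils, had 11.1 and 15.3 CPM in EH, 17.8 and 17.7 CPM in EL and 158 and 158 CPM in ELR (3.60 ± 0.26, adjusted p = 4.40e-29). CXCL12, which holds blood cells in stroma, had 413 and 448 CPM in EH, 319 and 322 CPM in EL and 4.95 and 4.86 CPM in ELR. It stayed high in EL and was low in ELR (−6.43 ± 0.31). Of NF-kappaB subunits, inhibitors and targets 7 of 15 rose and 1 fell, with the adhesion molecule ICAM1 at 2.19 ± 0.24 and the inhibitor NFKBIA at 0.95 ± 0.16. Complement genes fell in 12 of 13: C1R and C1S, the proteases that start the classical pathway (−5.62 ± 0.21 and −8.55 ± 0.72). PTGS1, a cyclooxygenase, had 1193 counts in EH and 4 in ELR (−8.98 ± 0.72).

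Interferon-induced genes gave 12 higher and 14 lower of 43 tested, a share close to that of all genes, but single members were far apart. OASL (NM_003733, GRCh37 chromosome 12, 121455566 to 121477049) had 2.21 and 2.70 CPM in EH, 88.4 and 86.6 CPM in EL and 99.0 and 83.7 CPM in ELR, with EL and ELR alike (5.21 ± 0.59). HERC5, the ligase for ISG15, had 2 counts in EH and 104 in ELR, a ratio of 28.6 (95% counting interval 7.74 to 239.7). IFITM1, which blocks virus entry, had 209 and 183 CPM in EH, 661 and 694 CPM in EL and 7.24 and 8.10 CPM in ELR, high in EL and lowest in ELR (−4.69 ± 0.26), and IFITM3 fell (−1.94 ± 0.08). The list took 0.185% ± 0.00552 of footprints in EH, 1.30% ± 0.0297 in EL and 0.141% ± 0.00191 in ELR.

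Other genes with the largest rises were G0S2, an inhibitor of fat breakdown (3.43 ± 2.77 CPM in EH and 129.8 ± 3.39 CPM in ELR, 5.30 ± 0.52), ESM1, a secreted proteoglycan (8.12 and 8.98 CPM in EH, 6.43 and 8.61 CPM in EL and 219 and 234 CPM in ELR, 4.72 ± 0.32), ZNF185, a LIM-domain protein of the actin skeleton (4.37 ± 0.32), the transcription factors SOX9 (4.09 ± 0.567 CPM in EH and 82.1 ± 2.39 CPM in ELR, 4.32 ± 0.47) and BNC1 (3.45 ± 0.37), and PODXL, podocalyxin (3.69 ± 0.20). G0S2 and ESM1 were as low in EL as in EH, whereas SOX9 and BNC1 stood between in EL. S100A4, a calcium-binding protein also used as a fibroblast marker, had 651 and 696 CPM in EH, 15.1 and 7.71 CPM in EL and 1.52 and 1.08 CPM in ELR (−8.90 ± 0.61). SULF1, which removes sulfate from heparan chains, fell (−8.76 ± 0.65). The giant scaffold AHNAK fell from 3333 ± 38.7 to 657 ± 7.46 CPM (−2.34 ± 0.04) and was among the 10 genes that lost the most footprints.

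Of metabolic lists, glycolysis and pentose phosphate genes rose in 18 of 30 tested and fell in 7. GAPDH had the largest gain in CPM of all genes, from 7098 ± 95.9 to 10920.0 ± 197 CPM (0.62 ± 0.03). ENO2 rose by 1.57 ± 0.15, hexokinase HK2 by 1.18 ± 0.14 and LDHB by 0.83 ± 0.04, and PKM, the pyruvate kinase, fell (−0.47 ± 0.03). Of 58 respiratory chain subunits 41 rose and 2 fell (median 0.31), with UQCRH at 1.21 ± 0.14. Proteasome subunits rose in 29 of 35 and fell in none (median 0.48). Cytosolic chaperones rose in 20 of 25 and fell in 4: HSP90AA1 rose from 2308 ± 98.2 to 4612 ± 115 CPM (1.00 ± 0.03) and HSPE1 by 1.31 ± 0.08, and HSPB1 fell (−1.09 ± 0.06). Folding genes of the endoplasmic reticulum, where collagen is made, fell in 20 of 28 and rose in 1, with calreticulin, CALR, at −0.72 ± 0.03, PDIA6 at −1.15 ± 0.05 and HERPUD1 at −1.46 ± 0.16. Iron, metal and redox genes fell in 13 of 25 and rose in 5, among them the metallothionein MT2A (−1.69 ± 0.05) and ferritin heavy chain, FTH1 (−1.73 ± 0.11). Cholesterol and fatty acid genes did not move as a block, 7 higher and 5 lower of 29.

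Whether footprints followed RNA was tested as the change in footprints minus the change in RNA, with 1 RNA library per line assumed to vary like the footprint groups. No RNA library has a replicate, so these calls hold no measure of how RNA varies between cultures, and they describe these libraries. Of 11079 genes 833 (7.52%) were called, 358 with more footprints than RNA predicts in ELR (3.23%) and 475 with fewer (4.29%). For most matrix genes RNA was lower as well: the RNA log2 ratio of the 94 tested matrix genes had a median of −2.32, and COL1A1 RNA had 513 CPM in EH and 17.0 CPM in ELR. The change in footprints minus that in RNA had a median of −0.23 for matrix genes, −0.31 for collagen chains and −0.04 for all genes tested for footprints. COL1A2, with RNA of 7172 CPM in EH and 38.2 CPM in ELR, lost more footprints than RNA (−1.61 ± 0.21), as did COL12A1 (−1.11 ± 0.09). FN1 lost fewer (0.59 ± 0.08).

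In these libraries most ribosomal proteins gained more footprints than RNA. Their median RNA ratio was 0.29 on the log2 scale, 71 of 77 were called with more footprints than RNA predicts and none with fewer, and the difference ranged from 0.11 to 1.89 with a median of 0.83. RPS6 RNA had 1845 CPM in EH and 2545 CPM in ELR, and its footprints rose by 1.08 ± 0.06 beyond it. RPS29 RNA was not higher in ELR (22.4 CPM in EH and 17.8 CPM in ELR), against a rise in footprints of 1.59 ± 0.06. In these RNA libraries 1 count is worth 0.457 CPM in EH and 0.378 CPM in ELR. Whether RPS29 RNA differed between the lines was not tested. In percent of the library, ribosomal proteins took 3.94% of EH RNA and 5.64% of ELR RNA. The elongation factor EEF1G also gained footprints over RNA (0.84 ± 0.06). Mitochondrial ribosomal proteins gave 1 call of 67 on this test and nucleolar genes 5 of 38, and their RNA ratios had medians of 0.53 and 0.65. Of the 39 histone genes 15 were called with more footprints than RNA predicts and none with fewer.

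ATF4 targets and one-carbon enzymes were the opposite case. In footprints 21 of 29 tested fell and 4 rose, with a median of −1.38, while their RNA ratio had a median of −0.04, and 21 of 29 were called with fewer footprints than RNA predicts and none with more (median −1.18). ATF4 itself was named after its values were seen. Its footprints (NM_001675) had 76.8 and 81.8 CPM in EH, 52.5 and 55.8 CPM in EL and 14.9 and 14.0 CPM in ELR. The lines did not overlap, and ELR had the least (−2.44 ± 0.21, adjusted p = 1.01e-18), while ATF4 RNA had 591 CPM in EH and 752 CPM in ELR, a difference of −2.82 ± 0.22. Among its targets, asparagine synthetase, ASNS, had 270.2 and 254 CPM in EH, 102 and 115 CPM in EL and 35.8 and 39.4 CPM in ELR and RNA of 85.5 CPM in EH and 60.5 CPM in ELR (−2.35 ± 0.21). The serine pathway enzyme PSAT1, also named after the fact, fell in footprints (−2.13 ± 0.09) with RNA of 205 CPM in EH and 199 CPM in ELR (−2.13 ± 0.13). The cystine transporter SLC7A11 fell (−2.58 ± 0.21) with RNA of 88.2 CPM in EH and 81.2 CPM in ELR (−2.50 ± 0.26). In SLC38A2, a neutral amino acid transporter and the member with the most footprints (from 1003 ± 4.29 to 229.9 ± 10.6 CPM), RNA was lower too (log2 ratio −1.66) and the difference was smaller (−0.50 ± 0.11). STC1, stanniocalcin, went up in both (3.10 ± 0.24 in footprints, 2.17 in RNA).

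The tRNA synthetases shared this pattern in part: 12 of 21 were called with fewer footprints than RNA predicts and 1, FARSB, with more (0.52 ± 0.13), and the median RNA ratio was 0.27. AARS RNA had 378 CPM in EH and 419 CPM in ELR against a fall in footprints of −1.01 ± 0.07, a difference of −1.19 ± 0.11, and for CARS, GARS and EPRS the difference was −1.40 ± 0.15, −0.93 ± 0.09 and −0.82 ± 0.09. Interferon-induced genes were called with fewer footprints than RNA predicts in 7 of 43 and with more in none, with RNA ratios above 0 in 32 of 43 (median 0.77) but a footprint median of −0.07. Mitosis genes were called lower on this test in 13 of 40. JUN gained footprints without RNA (1.18 ± 0.19, RNA log2 ratio 0.04), and MMP1 gained 0.55 ± 0.05 over its RNA. AHNAK, whose message is among the longest, changed by −1.22 ± 0.05 beyond its RNA.

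**Figure D4:**
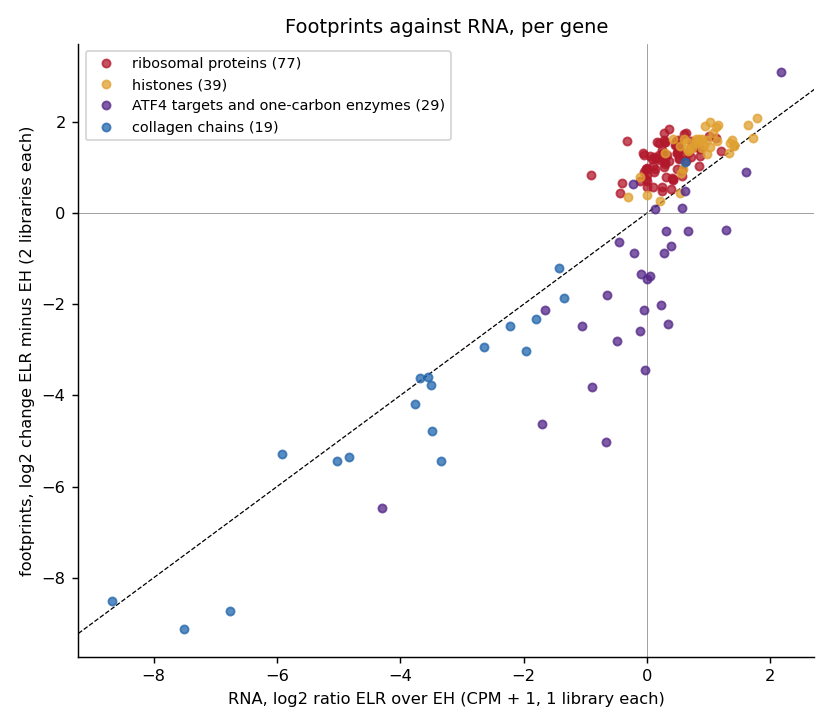
Each point is a gene: the horizontal axis is the log2 ratio of RNA in ELR over EH (CPM + 1, 1 library each) and the vertical axis the log2 change in cycloheximide footprints (2 libraries each), with the dashed line where they are equal. Ribosomal proteins (red) mostly lie above the line, most ATF4 targets and one-carbon enzymes (purple) below it, and collagen chains (blue) near it far to the lower left.

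The same contrast in the much shallower harringtonine libraries called 1094 of 3555 genes (30.8%). The term for a difference between the drugs was called in 146 of 8818 genes (1.66%). Under harringtonine 67 of the 76 matrix genes tested were lower and 2 higher, 44 of 76 ribosomal proteins were higher and none lower, and 10 of 15 genes of the ATF4 list were lower and 2 higher. Over the members tested in each, the median was −2.33 for the matrix (−2.87 under cycloheximide), 0.72 for ribosomal proteins (1.22) and −1.07 for the ATF4 list (−1.38). RPL27 changed by 1.93 there and 1.68 under cycloheximide. RPL7A, RPL8 and RPL13 had 0.43, 0.58 and 1.07 under harringtonine against 1.32, 1.26 and 1.74 under cycloheximide. Among these genes only RPL7A was called on the drug term (0.83 ± 0.17). RPL27, RPL8 and RPL13 were not (edgeR adjusted p = 0.749, 0.122 and 0.13). The drug term was called in 14 of 91 matrix genes and 11 of 77 ribosomal proteins. Which part of a transcript was counted is not known, so whether the counts hold start sites alone or whole coding regions cannot be told.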

How the data were processed

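The labels give 36 libraries, of which 15 are from the BJ lines. The deposited values are raw counts per RefSeq transcript, 36499 rows in each library, and were checked to be whole numbers. Per the submitters' processing notes, the authors used TopHat and hg19. Versions, the counting program and the part of a transcript that was counted are not given in the sources used here. Per symbol (19137, of which 7636 have several rows), the row with the highest mean count in the 6 BJ cycloheximide libraries stood for the gene. Counts were filtered with filterByExpr (minimum count 10, total 15), scaled with TMM and tested, two-sided, with the quasi-likelihood models of edgeR 4.0.16 (R 4.3.3) with Benjamini-Hochberg adjustment over all tested genes. The model had 1 mean per line and no covariate. SE is the Wald error of the fitted contrast, held at or above counting error. On simulated counts the 95% interval from it held the true change in 94.8% of unchanged genes and in 97.5% of genes that fell to 4 to 10 counts. RNA ratios used CPM with a pseudocount of 1 and no test. A fold against 0 counts took 3 counts over the group as its floor, and 95% intervals for 1 to 3 counts are exact. Both cover the error of counting alone, since amplified reads that carry no molecular identifier may share a molecule. Shares of footprints are percent of all counts in a library.

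Alternatives were the 4 EH and ELR libraries alone, all 16 cycloheximide libraries, DESeq2 1.42.0, other scalings, filters and transcript rows, a test against a 2-fold change, a replicate block and each library left out. On simulated counts with the spread of the main comparison (9754 genes, 99 tested with each change), 69.7% of 2-fold and 97% of 4-fold changes were recovered. Far fewer genes changed there than were called in the data, so recovery in the data may differ. The same shares were 50% and 81.2% for harringtonine. For the drug term, over the more abundant genes only, they were 22.4% and 49%. The members and gene lists were chosen with earlier results of these data known. Genes named are HRAS, TERT, CDKN2A, CDKN1A, MDM2 and RB1, the 12 largest rises and 12 largest falls among calls with abundance over the median and no overlap of replicates, the 10 that gained and 10 that lost the most CPM, and in each list up to 4 called members of the commoner direction, up to 2 of the other and the most abundant. ATF4, PSAT1, COL4A2 and COL5A2 were named after their values were seen. Some genes that the rule names are not reported here. Positions are from GENCODE release 44 mapped to GRCh37, and starts of transcripts from RefSeq (GRCh38.p14).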

Additional observations from a re-analysis of the deposited data

Results flagged for a closer look

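The difference between ELR and EH depended on the drug for 23 of the 288 named genes that could be tested. Calls used the edgeR interaction term at adjusted p under 0.05, which called 1.66% of all genes tested. Most named genes were picked for abundance and for large changes in the same cycloheximide libraries. That choice favours calls on this term and larger changes under cycloheximide, so the named genes cannot be set against all genes. All 23 kept their direction under harringtonine. Values are the log2 change under cycloheximide minus that under harringtonine, and 20 of them are negative.

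Matrix genes that fell more under cycloheximide were COL6A3 (−0.97), FN1 (−0.84), COL12A1 (−1.03), LOX (−0.98), COL1A1 (−0.47) and THBS1 (−0.45). Among secreted regulators the term was −3.71 for the chemokine CXCL12, −1.20 for the protease inhibitor TIMP3 and −1.0021 for SERPINE2. Long structural messages gave −0.55 for filamin A (FLNA) and −0.65 for AHNAK. In the mitosis list it was −0.58 for ASPM, −0.50 for CENPF and −0.57 for TOP2A. The tRNA synthetases AARS and EPRS had −0.81 and −0.53, the chaperone HSPB1 −1.07 and the metallothionein MT2A −0.85.

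MMP1 and SSR3, a subunit of the translocon-associated complex, rose more under harringtonine (−0.38 and −1.17). The 3 that rose more under cycloheximide were RPL7A (0.83) and the histones HIST1H1E (0.75) and HIST1H3C (1.73). Over all genes, 124 of the 146 called on this term were negative and 22 positive. The cause was not tested.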

How the results depend on the processing

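Called genes numbered 5330. Over the other ways to fit the data the count ran from 3772 (DESeq2) to 5540 (no filter on low counts), except that a test against a 2-fold change called 1213, of which 357 higher and 856 lower. Leaving out a library gave 4328 to 4888 calls, 2016 to 2328 higher and 2312 to 2560 lower. With the spread of all 16 cycloheximide libraries 4202 were called. Scaling by library totals shifted the median of all genes from −0.01 to 0.08 and the share of calls that were higher from 47.9% to 54.2%. Of the 289 named genes none changed direction under any of the 15 alternatives, and 163 kept their call under all of them. Of 49 lists, 14 kept a similar count of called members under every alternative. Over all lists and alternatives, 689 such counts stayed similar, 44 moved and 2 turned. The 2 lists turned under the test against 2-fold, where cytosolic chaperones had 1 higher and junction genes 3 lower, as fewer members pass it.

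Replicate numbers did not pair the libraries (correlations of deviations 0.04 to 0.05), and a replicate block gave 5309 calls. The block also gave 1062 for harringtonine and 153 for the drug term.

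The drug term fell from 146 to 87 genes without ELR replicate 1, and its range without a library was 87 to 102. Footprints against RNA gave 833 calls and 535 without ELR replicate 1 (range 535 to 681). Tested genes with an RNA ratio of at least 2-fold numbered 1952, or 1261 with a pseudocount of 5 CPM. With the transcript row of the lowest mean, matrix genes took 7.50% of EH and 1.26% of ELR footprints and ribosomal proteins 4.87% and 11.9%. Over tested genes alone ribosomal proteins took 11.84% in ELR. Harringtonine libraries are shallow, and 1 count there is worth 4.81 to 9.95 CPM, so a term that missed the threshold does not show that the drugs agree.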

Other observations

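The change between the lines varied with chromosome. Among tested genes above the median abundance, the median log2 change was 0.38 on chromosome 6, which holds the large histone cluster (248 genes, 52.8% called higher and 22.2% lower), 0.34 on chromosome 17 (314 genes, 52.5% and 17.5%) and 0.29 on chromosome 20 (146 genes, 51.4% and 20.5%). It was −0.28 on chromosome 15 (161 genes, 16.1% higher and 47.2% lower), −0.19 on chromosome 21 (56 genes) and −0.18 on chromosome 4 (158 genes, 21.5% and 42.4%). Chromosome 1, which had the most genes (524), had a median of −0.005, with 34.5% called higher and 31.3% lower. Only the more abundant genes are counted here, so the shares over all tested genes are not the background for these. RNA ratios were taken over those of these genes with at least 10 CPM in the EH or ELR RNA library. Their medians were 0.25, 0.30 and 0.31 on chromosomes 6, 17 and 20 and −0.34, −0.14 and −0.28 on chromosomes 15, 21 and 4. The cause was not tested.

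Short coding regions were higher and long ones lower in ELR. Over 9279 of the 9999 genes (92.8%) with a coding length in the annotation, the 1855 genes with coding regions up to 789 bases had a median log2 change of 0.17, with 35.5% called higher and 22.4% lower, and the 1856 genes from 2658 bases had −0.25, with 14.3% and 38.7%. Without the ribosomal protein, histone and matrix lists the medians of the shortest and longest groups were 0.11 and −0.23. RNA ratios followed in part, with medians of 0.07 and −0.15 in the shortest and longest of 5 equal groups. These medians cover genes with at least 10 CPM in the EH or ELR RNA library, 1431 in the shortest group and 1766 in the longest.

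Oncofetal genes, outside the comparisons above, rose in 5 and fell in 2 of 7 tested out of 34 on the list. HMGA1, a chromatin protein of embryonic and tumour cells, rose from 340.3 ± 10.5 to 896 ± 33.6 CPM (SD, n = 2; 1.39 ± 0.06), and IGF2BP3, a fetal RNA-binding protein, by 2.14 ± 0.28, while MAGED1 fell (−1.50 ± 0.07). Death and survival genes rose in 9 and fell in 4 of 21, with MCL1 at 0.72 ± 0.08. Of hypoxia-response genes 3 rose and 8 fell of 16, with BNIP3 at 1.66 ± 0.10 and ADM at −1.89 ± 0.12.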
